A study of Mus musculus with 8 samples.

Results

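The 8 genes described here encode subunits of the NMDA and delta classes of glutamate receptor: Grin1, Grin2a, Grin2b, Grin2c, Grin2d, Grin3a, Grin3b and Grid1. They were taken by symbol from the 33696 genes listed for every library, and each symbol matched 1 gene. Single-nucleus RNA sequencing (snRNA-seq) was performed on retinae of mice at P120 (postnatal day 120), as 4 Piezo2f/f control libraries (replicates 1 to 4) and 4 Olig2-cre;Piezo2f/f conditional knockout (cKO) libraries (replicates 10 to 13). Both genotypes carried floxed Piezo2 alleles, Piezo2 being a mechanically gated ion channel, and the mice were female per the study's methods. In the cKO the Cre recombinase sits inside the exon of Olig2, a transcription factor of the oligodendrocyte lineage, so that 1 Olig2 copy is interrupted. Each library pooled nuclei of 6 retinae, sorted with antibodies against NeuN and RBPMS to enrich retinal ganglion cells (RGCs), the neurons whose axons form the optic nerve.

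NMDA receptors are glutamate-gated cation channels that open when glutamate and a co-agonist (glycine or D-serine) are bound while the membrane is depolarised. Grin1 encodes the obligatory subunit, which binds the co-agonist. The Grin2 genes encode the glutamate-binding subunits, which set the kinetics and the magnesium block of the channel, and the Grin3 genes encode glycine-binding subunits that lower its calcium permeability. Grid1 encodes a delta receptor, which despite its sequence acts mainly as a synaptic organiser: it binds secreted cerebellins, which in turn bind presynaptic neurexins. In the retina, bipolar cells release glutamate onto RGCs and amacrine cells, and NMDA receptors on RGCs carry part of that excitatory input.

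The members share a short conserved stretch, shown here for 6 of them as the coding sequence for the end of the third membrane segment, which lines the pore in all ionotropic glutamate receptors. The 27 bases below are given 5′ to 3′ on the coding strand, from the canonical transcripts of GENCODE M39, and capitals mark bases that differ from Grin1 at the same position.
Grin1: tcctacactgccaacctggcagccttc
Grin2a: AGTtacacAgccaacctggcTgccttc
Grin2c: AGctacacGgccaaTctggcagccttc
Grin3a: AcAtacacAgcGaacTtggcTgcTGtc
Grin3b: AGTtacacAgccaacctggcagcTGtc
Grid1: tcctacacAgccaacctggcCgcTttc
Of these stretches, that of Grid1 had the fewest bases unlike Grin1 (3) and that of Grin3a the most (8), with 4 to 6 in the others. The stretch was chosen as the 9 codons with the most residues shared with Grin1 over the members. Grid1, Grin2a and Grin2c encode the same 9 residues there as Grin1, so their differing bases are synonymous. Over the whole protein, compared by residues and not by bases, Grid1 had the lowest identity to Grin1. It was 27.3% of aligned residues, against 28.7% to 31.7% for the other members. The stretches lie in GRCm39 at chr2:25187211-25187237 (exon 14 of Grin1), chr16:9471311-9471337 (exon 9 of Grin2a), chr11:115144575-115144601 (exon 11 of Grin2c), chr4:49770470-49770496 (exon 3 of Grin3a), chr10:79810470-79810496 (exon 3 of Grin3b) and chr14:35174298-35174324 (exon 12 of Grid1). Grin3b and Grid1 are on the plus strand and the others on the minus strand.

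The genes differ widely in length, which matters because nuclear RNA holds introns and long genes gather more reads. In GRCm39, Grid1 (ENSMUSG00000041078) spans 763.6 kb at chr14:34541769-35305336, Grin2b (ENSMUSG00000030209) 460.3 kb at chr6:135690231-136150548 and Grin2a (ENSMUSG00000059003) 427.7 kb at chr16:9385762-9813424. Grin3a (ENSMUSG00000039579) spans 184.2 kb at chr4:49661611-49845847, Grin2d (ENSMUSG00000002771) 46.5 kb at chr7:45481304-45527802 and Grin1 (ENSMUSG00000026959) 28.0 kb at chr2:25181186-25209226. The shortest are Grin2c (ENSMUSG00000020734), 18.5 kb at chr11:115139992-115158525, and Grin3b (ENSMUSG00000035745), 6.5 kb at chr10:79806549-79813024. Grin3a shares its strand with Ppp3r2, which lies within its span, and the span of Grin1, Grin2b, Grin2d or Grin3b overlaps at least 1 gene on the other strand, so reads in those stretches depend on how they were assigned.

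After nucleus calling and quality filters 34900 nuclei were kept, 15875 from control and 19025 from cKO retinae, with 2210 to 5315 nuclei and a median of 3670 to 9520.5 unique molecular identifiers (UMIs) per library. The deposited matrices held 35697629 to 60088630 UMIs per library. Retinal classes were gated by UMIs of 8 marker genes each, which gave 20284 RGC, 2138 amacrine, 1399 bipolar, 2091 photoreceptor, 1221 Müller glia and 234 horizontal nuclei, and 7516 nuclei stayed ungated. Nuclei close to a gate's limits made up 19.2% of RGC and 31.6% to 42.8% of amacrine, bipolar, photoreceptor and Müller glia nuclei. In the RGC gate the summed level of Piezo2 was 18.2, 14.0, 15.0 and 11.9 CPM (UMI counts scaled to the same total for every library and gate) in control and 15.3, 13.5, 12.1 and 8.52 CPM in cKO libraries, and these ranges overlapped; whether reads fall in the deleted exons was not examined, so this level does not check the deletion. Pairs of libraries shared 136 barcodes.

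Grin1 was higher in RGC and amacrine than in bipolar nuclei. Its level, summed over the nuclei of a class in each library and expressed as CPM, was 264, 282, 294 and 314 in RGC nuclei and 255, 261, 285 and 265 in amacrine nuclei of control libraries 1 to 4. In bipolar nuclei it was 135, 158, 143 and 140.3 CPM. RGC and amacrine libraries overlapped, while every bipolar library lay under both. Photoreceptor nuclei held 58.8, 32.7, 35.8 and 44.9 CPM and Müller glia 21.0, 16.0, 17.1 and 10.9 CPM. Bipolar, photoreceptor and Müller glia libraries were all below the 201 ± 27.0 CPM (SD, n = 8 libraries; lowest 166.5) of Grin1 in empty droplets, which hold free RNA. The part of free RNA in the low levels of these classes was not tested. In the horizontal gate, where 2 control libraries had more than 10 nuclei, Grin1 stood at 377 and 447 CPM, from 181 UMIs, above every control RGC library, while each of the other members was at 12.0 CPM or less on average. In the cKO the 3 such libraries had 334, 537 and 285 CPM of Grin1, which overlapped the RGC range. Amacrine markers summed to 436 to 859 CPM in the horizontal gate, by library.

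Grin2a and Grin2b, the glutamate-binding subunits of most forebrain NMDA receptors, had different class patterns. In control libraries 1 to 4 Grin2a was at 644, 715, 751 and 611 CPM in RGC nuclei and at 439.9, 439, 530.1 and 490.3 CPM in amacrine nuclei, and the classes did not overlap. It was at 7.5, 9.68, 1.57 and 11.1 CPM in bipolar nuclei. Its control mean was thus 7.47 ± 4.21 CPM (SD, n = 4) in the bipolar gate, with photoreceptors at 21.4 ± 17.3 and Müller glia at 20.8 ± 18.9 CPM. In cKO libraries the bipolar mean was 21.9 ± 12.7 and that of Müller glia 8.58 ± 2.63 CPM. Grin2b was at 333, 344, 349.7 and 360.4 CPM in RGC and at 393, 345, 401 and 416 CPM in amacrine nuclei. These overlapped, and Müller glia followed with 269, 258, 207 and 286 CPM. The Müller glia level of Grin2b was above the 110.1 ± 19.3 CPM of empty droplets (n = 8), unlike that of Grin1 or Grin2a (127 ± 18.5 CPM in empty droplets). Beside it, the 8 RGC marker genes summed to 170.0 to 379 CPM in the Müller glia gate and to 314 to 531 CPM in the photoreceptor gate of control libraries. In the RGC gate they summed to 2084 to 2509 CPM over all 8 libraries. Over the same 8 libraries, amacrine markers summed to 264 to 349 CPM in the Müller glia gate, against 1287 to 1776 CPM in the amacrine gate. Bipolar markers summed to 259 to 352 CPM there, against 4841 to 5932 CPM in the bipolar gate. The part of other classes in the Müller glia level of Grin2b was not tested.

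Grin2c and Grin2d, which form channels with a weaker magnesium block, had few UMIs. Grin2d was at 37.8, 29.6, 43.9 and 29.8 CPM in amacrine and at 22.9, 24.4, 26.0 and 26.1 CPM in RGC nuclei of the control libraries, and the classes did not overlap. Its RGC level was close to that of empty droplets (23.5 ± 4.81 CPM, n = 8). Grin2c was at 0.969, 2.96, 3.06 and 3.60 CPM in amacrine nuclei, from 20 UMIs in all, and at 1.56, 1.46, 1.23 and 1.43 CPM in RGC nuclei. Empty droplets held 1.46 ± 0.53 CPM of Grin2c (n = 8), so its RGC level was not above that of free RNA. No Grin2c UMI was found in bipolar, photoreceptor or Müller glia nuclei of control libraries, which at 3 UMIs over the summed libraries allows up to 1.28, 2.18 and 1.75 CPM. Such limits and small counts cover counting error only.

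Grin3a, a glycine-binding subunit, was higher in RGC and bipolar than in amacrine nuclei. It was at 133, 139, 139 and 118 CPM in RGC nuclei and at 63.8, 133, 79.9 and 66.8 CPM in bipolar nuclei of control libraries 1 to 4, with control library 2 of the bipolar gate reaching the RGC range. In amacrine nuclei it was at 25.2, 24.2, 26.5 and 36.0 CPM, under every RGC and bipolar library. Empty droplets held 55.1 ± 5.42 CPM of Grin3a (n = 8, 46.5 to 63.6 CPM), under every bipolar library (3 of them at 63.8 to 79.9 CPM) and above every amacrine library. Grin3b was low in all classes, with the highest mean in amacrine nuclei, at 12.6, 6.42, 3.06 and 4.63 CPM from 41 UMIs, against 1.17, 1.33, 1.32 and 0.794 CPM in RGC nuclei and 0.577 ± 0.594 CPM in empty droplets (n = 8).

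Grid1 followed another order than the NMDA subunits, with bipolar cells first. Bipolar nuclei held 1193, 1347, 1216 and 1158 CPM in the control libraries and RGC nuclei 415, 438, 427 and 454 CPM. The other classes were lower: Müller glia at 143, 158, 152 and 213 CPM and amacrine nuclei at 151, 148, 153 and 149 CPM, which overlapped, and photoreceptors at 93.6, 35.4, 39.4 and 86.1 CPM. The lowest bipolar library thus lay above the highest RGC library of Grid1, and empty droplets held 58.3 ± 14.7 CPM (n = 8). The cKO libraries gave the same leading class: 1231, 1129, 1179 and 1241 CPM in bipolar against 397, 399, 439 and 432 CPM in RGC nuclei.

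**Figure D1:**
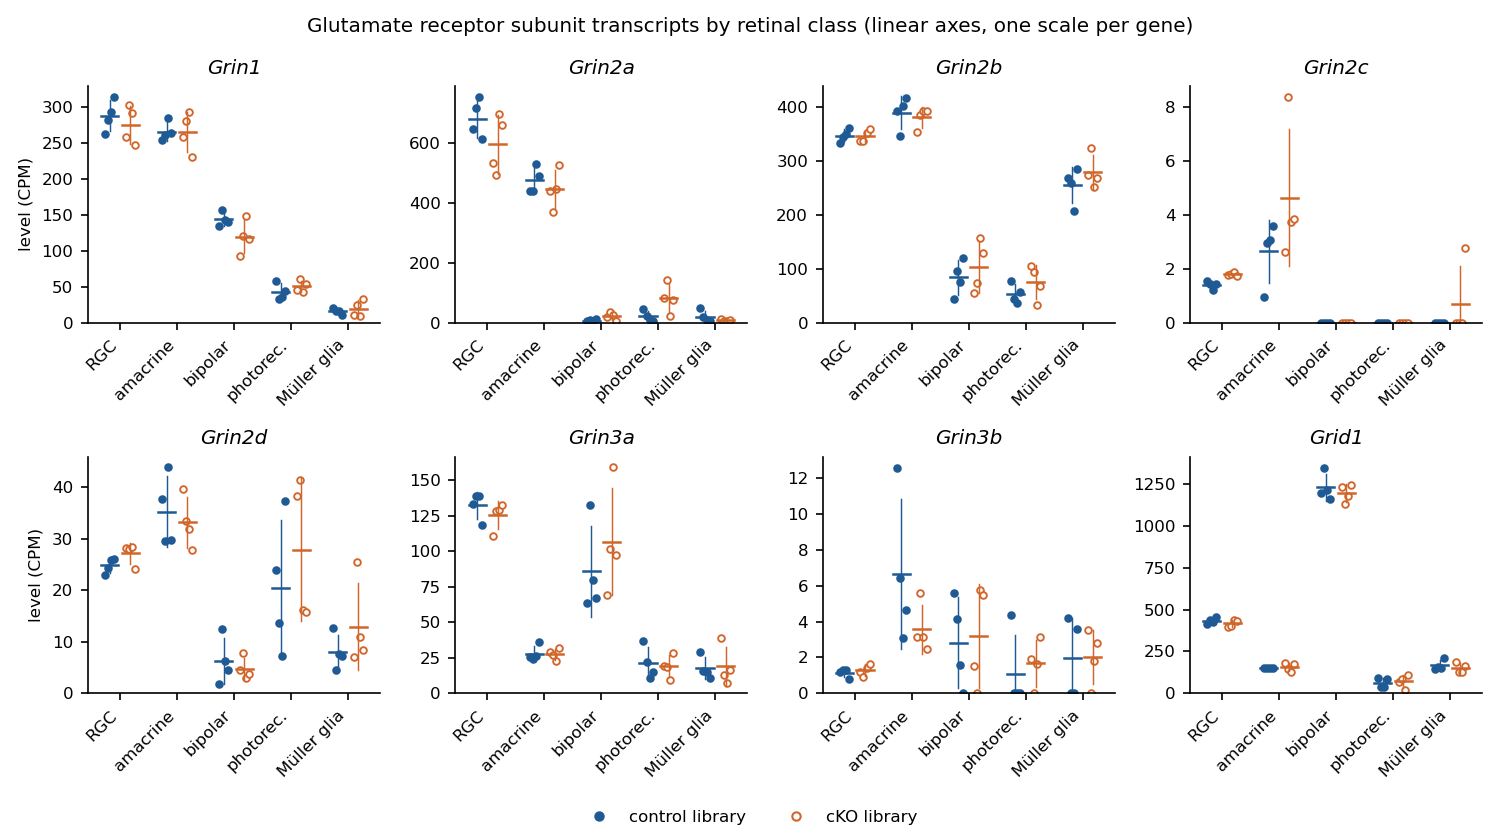
Levels of the 8 members in CPM (linear axes, one scale per gene) in 5 retinal classes; each point is 1 library (filled blue, control; open orange, cKO), the horizontal line is the mean and the vertical line the SD of 4 libraries. Of these 5 classes, Grin1 and Grin2a are highest in RGC and amacrine nuclei, Grin2b also reaches 255 CPM in control Müller glia, and Grid1 is highest in bipolar nuclei at 1228 CPM.

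To compare genes with each other, levels were also divided by gene length. Whether the counts rise in proportion to length was not tested. Expressed as control CPM per 100 kb of gene in RGC nuclei, Grin1 had 1030.2, Grin2a 159, Grin2b 75.3, Grin3a 71.8, Grid1 56.8, Grin2d 53.4, Grin3b 17.7 and Grin2c 7.67. Grin1 therefore led on this scale, although Grin2a had the highest level per gene. On the same scale Grid1 in bipolar nuclei had 161 CPM per 100 kb and Grin1 had 1472 CPM per 100 kb in horizontal nuclei. In amacrine nuclei the order began with Grin1 at 951 CPM per 100 kb, Grin2a at 111, Grin3b at 102.7 and Grin2b at 84.5, the value of Grin3b resting on 41 UMIs. Division by length does not correct for differences in splicing or in intron priming between genes.

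RGC nuclei were then tested against each other class of the same libraries with edgeR, over all genes. A gene was called when its adjusted p was under 0.05 and its log2 fold change exceeded 0.5 in size; the p-values measure the spread between these pools of retinae only. Against amacrine nuclei, 5 of 8 members were called in control libraries, where 25.9% of all genes tested were called. Grin3a was higher in RGC nuclei by a log2 fold change of 2.29 ± 0.12 (SE, n = 4 libraries, adjusted p = 3.48e-10), Grid1 by 1.60 ± 0.066 (adjusted p = 3.06e-11) and Grin2a by 0.58 ± 0.086 (adjusted p = 5.86e-05). Grin3b was called lower, with -2.28 ± 0.38 (adjusted p = 0.000168), and so was Grin2c, with -0.95 ± 0.35 (adjusted p = 0.0461). Grin3b passed the filter on low counts here only through amacrine nuclei (3.06 to 12.6 CPM, against 0.794 to 1.33 CPM in RGC nuclei). Its RGC level was within the range of empty droplets (0 to 1.90 CPM), and its control call was not read as a difference. The Grin2c call was lost without control replicate 2, 3 or 4 (adjusted p = 0.146 to 0.204), with the library as a block (0.0663), with the DESeq2 test (0.054), with no filter (0.135) and with the stricter gate (0.0558). Grin1 (0.18 ± 0.077) and Grin2b (-0.10 ± 0.072) missed the threshold, and Grin2d (-0.42 ± 0.13, adjusted p = 0.0209) missed the fold but was called without control replicate 4 (-0.52, adjusted p = 0.0158).

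In cKO libraries the background was 23.9% and 4 members were called against amacrine nuclei: Grin3a at 2.21 ± 0.13, Grid1 at 1.45 ± 0.11, Grin3b at -1.27 ± 0.37 and Grin2c at -1.19 ± 0.32. Grin2a stood at 0.47 ± 0.15 (edgeR adjusted p = 0.036), under the fold, and passed it at 0.53 without cKO replicate 10 or 13 and at 0.54 with no filter. Leaving out cKO replicate 10, 11 or 12 ended the Grin3b call (adjusted p = 0.0591 to 0.095), and leaving out cKO replicate 11 or 13 ended that of Grin2c (adjusted p = 0.0719 to 0.0828), as did the stricter gate (0.0532). Grin3a and Grid1 kept their calls in both genotypes whichever library was left out.

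Against bipolar nuclei, all 6 members tested in control libraries were called, with 42.3% of all genes called. The fold was largest for Grin2a, at 6.63 ± 0.20 (adjusted p = 2.83e-14), followed by Grin2b at 2.14 ± 0.16, Grin2d at 1.95 ± 0.31, Grin1 at 1.08 ± 0.10 and Grin3a at 0.65 ± 0.16 (adjusted p = 0.00331). Grid1 went the other way, at -1.42 ± 0.079 (edgeR adjusted p = 8.59e-11). In cKO libraries, with 39.1% of genes called, Grin2a was at 4.93 ± 0.26, Grid1 at -1.45 ± 0.11 and Grin3a, no longer called, at 0.28 ± 0.19 (edgeR adjusted p = 0.271; 0.57 and called without cKO replicate 12, adjusted p = 0.0295). The sixth call there was Grin2c, with 0 UMIs in bipolar nuclei, so that it passed the filter only through RGC nuclei. Its RGC level (1.74 to 1.88 CPM) was within the range of empty droplets (0.499 to 2.32 CPM), and this call was not read as a difference. The call was lost without cKO replicate 10, 12 or 13 and with the DESeq2 test (adjusted p = 0.0589), and the value stood at -0.20 with doublets kept.

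All 6 members tested were higher in RGC than in photoreceptor nuclei of control libraries, where 49.9% of genes were called and 29.8% were called higher, and all 6 were higher than in Müller glia, where 48.5% were called and 27.1% were called higher. Against photoreceptors the log2 fold change was 5.22 ± 0.25 for Grin2a, 3.16 ± 0.19 for Grid1, 3.13 ± 0.17 for Grin1, 3.07 ± 0.17 for Grin2b and 2.94 ± 0.21 for Grin3a. Grin2d was the weakest, at 0.72 ± 0.29 (edgeR adjusted p = 0.0454), and was lost without control replicate 1, 2 or 3 (adjusted p = 0.0538 to 0.239), with the library as a block (0.0619), with doublets kept (0.0736) and after thinning to 2000 UMIs (0.0627). Against Müller glia the values ran from 5.15 ± 0.23 for Grin2a and 4.30 ± 0.18 for Grin1 through 3.03 ± 0.19 for Grin3a to 0.67 ± 0.10 for Grin2b (edgeR adjusted p = 1.19e-05). The median over all genes tested was 0.19 against photoreceptors and 0.14 against Müller glia. In cKO libraries 6 members were called against each class (backgrounds 48.2% and 45.6%). Against photoreceptors Grin2d was no longer among them (0.39 ± 0.24, edgeR adjusted p = 0.197). It was at 38.2, 41.5, 16.1 and 15.8 CPM in photoreceptor and 28.2, 27.9, 28.4 and 24.1 CPM in RGC nuclei. Grin2c was counted there in its place, with 0 photoreceptor UMIs, so that it passed the filter only through RGC nuclei. Its RGC level (1.74 to 1.88 CPM) was within the range of empty droplets (0.499 to 2.32 CPM), and this call was not read as a difference. In both comparisons Grin2a again had the largest fold among members with UMIs in both classes, at 3.30 ± 0.35 and 6.20 ± 0.27. Without cKO replicate 12, the cKO calls of Grin2c against photoreceptors and of Grin2b against Müller glia (0.53 ± 0.11 with all libraries, 0.49 without) were lost. Both were also lost with nuclei called by UMI totals alone (Grin2c adjusted p = 0.227 in edgeR; Grin2b 0.47, under the fold), and that of Grin2b with doublets kept (0.47). Photoreceptor nuclei were shallow, with library medians of 949 to 1636 UMIs against 4923.5 to 11224 for RGC nuclei.

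Within RGC nuclei, types were gated by the UMIs of a lead gene: Opn4 (melanopsin), Cartpt, Spp1, Foxp2, Tbr1, Neurod2, Chrm2 and Zic1. In control libraries these gates held 125, 1912, 312, 1674, 294, 249, 680 and 124 nuclei, and nuclei could fall into several gates. A second gene of the type was found more often inside than outside the gate for Opn4 (Eomes in 38.9% to 75% of nuclei against 2.33% to 4.19%), Cartpt (Col25a1) and Spp1 (Kcnip2), while Foxp1 and Jam2 did not separate the Foxp2 and Tbr1 gates, so all gates are named by the lead gene alone. Some lead genes were also found outside RGC nuclei: Cartpt averaged 169 CPM in RGC nuclei of control libraries and 366, 246, 117 and 108 CPM in amacrine, photoreceptor, bipolar and Müller glia nuclei. Foxp2 averaged 162 CPM in RGC nuclei and 248 CPM in Müller glia, and Chrm2 56.9 CPM in RGC, 74.3 CPM in amacrine and 69.9 CPM in bipolar nuclei. Neurod2 averaged 3.61 CPM in RGC nuclei and 8.60, 6.71 and 4.37 CPM in bipolar, photoreceptor and amacrine nuclei. Zic1 averaged 5.52 CPM in RGC nuclei, 11.2 CPM in Müller glia (21 UMIs) and 6.54 CPM in photoreceptors (8 UMIs). No second gene was checked for the Zic1 gate. The part of free RNA or of other cell types in these gates was not tested. Spp1-gated nuclei were deep, with library medians of 10499 to 24566 UMIs.

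Grin2a differed strongly between the gates. Zic1-gated nuclei led with 1189, 1597, 1647 and 1331 CPM in control libraries 1 to 4, followed without overlap by Chrm2-gated nuclei with 888, 952, 958 and 801 CPM. Foxp2-gated nuclei were last, with 138, 129.5, 96.8 and 93.3 CPM, against 735, 817, 874 and 722 CPM in the other RGC nuclei. Every library thus had several times higher Grin2a CPM outside the Foxp2 gate than inside. No control library of the Foxp2 gate was above the range of Grin2a in empty droplets (101 to 167 CPM, n = 8). Opn4-gated nuclei overlapped the Foxp2-gated ones, at 276, 146, 286 and 138 CPM, and Spp1- and Tbr1-gated nuclei averaged 329 ± 50.1 and 321 ± 48.5 CPM (SD, n = 4).

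Grin3a had nearly the opposite order. It was highest in Foxp2-gated nuclei, at 442, 448, 451 and 354 CPM in control libraries, against 78.0, 85.2, 80.1 and 67.5 CPM in the other RGC nuclei. Opn4-gated nuclei came next, at 336, 313, 242 and 198 CPM, apart from every other gate. At the low end, Zic1-gated nuclei held 9.99, 4.44, 50.4 and 21.2 CPM, from 23 UMIs in all, against 134, 141, 140 and 120 CPM outside the gate. Chrm2-gated nuclei held 37.7, 41.8, 63.2 and 19.6 CPM, mostly below the level in empty droplets. Of the 8 gates, Zic1 and Chrm2 were therefore first and second for Grin2a and last and next to last for Grin3a, although neighbouring gates at the low end of Grin3a overlapped. These gates partly share nuclei and all come from the same libraries.

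Grin1 ranged from 224 ± 30.6 CPM (Opn4-gated) to 319 ± 30.3 CPM (Cartpt-gated), and every gate overlapped its neighbour in the order. Grin2b was lowest in Opn4-gated nuclei, at 148, 114, 114 and 109.9 CPM, and next lowest in Spp1-gated nuclei, at 171, 163, 151 and 187 CPM. These were apart from each other and from the other 6 gates, which averaged 293 to 451 CPM. In cKO libraries the Opn4 (98.2 to 172 CPM) and Spp1 (153 to 180.2 CPM) gates overlapped. The control Opn4-gated values were within the range of Grin2b in empty droplets (86.3 to 150.2 CPM, n = 8). Grid1 led in Neurod2-gated nuclei, at 562, 606, 676 and 705 CPM, and in Spp1-gated nuclei, at 558, 624, 627 and 657 CPM, which overlapped. Its lowest gate was Zic1, at 309 ± 35.5 CPM. Grin2d averaged 39.5 ± 5.70 CPM in Foxp2-gated and 39.2 ± 14.8 CPM in Opn4-gated nuclei and 15.3 ± 2.23 CPM in Cartpt-gated nuclei. Grin2c reached 31 UMIs in the Spp1 gate of control libraries and 0 UMIs in the Zic1 gate, and Grin3b had 21 UMIs in each of the Cartpt and Foxp2 gates.

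**Figure D2:**
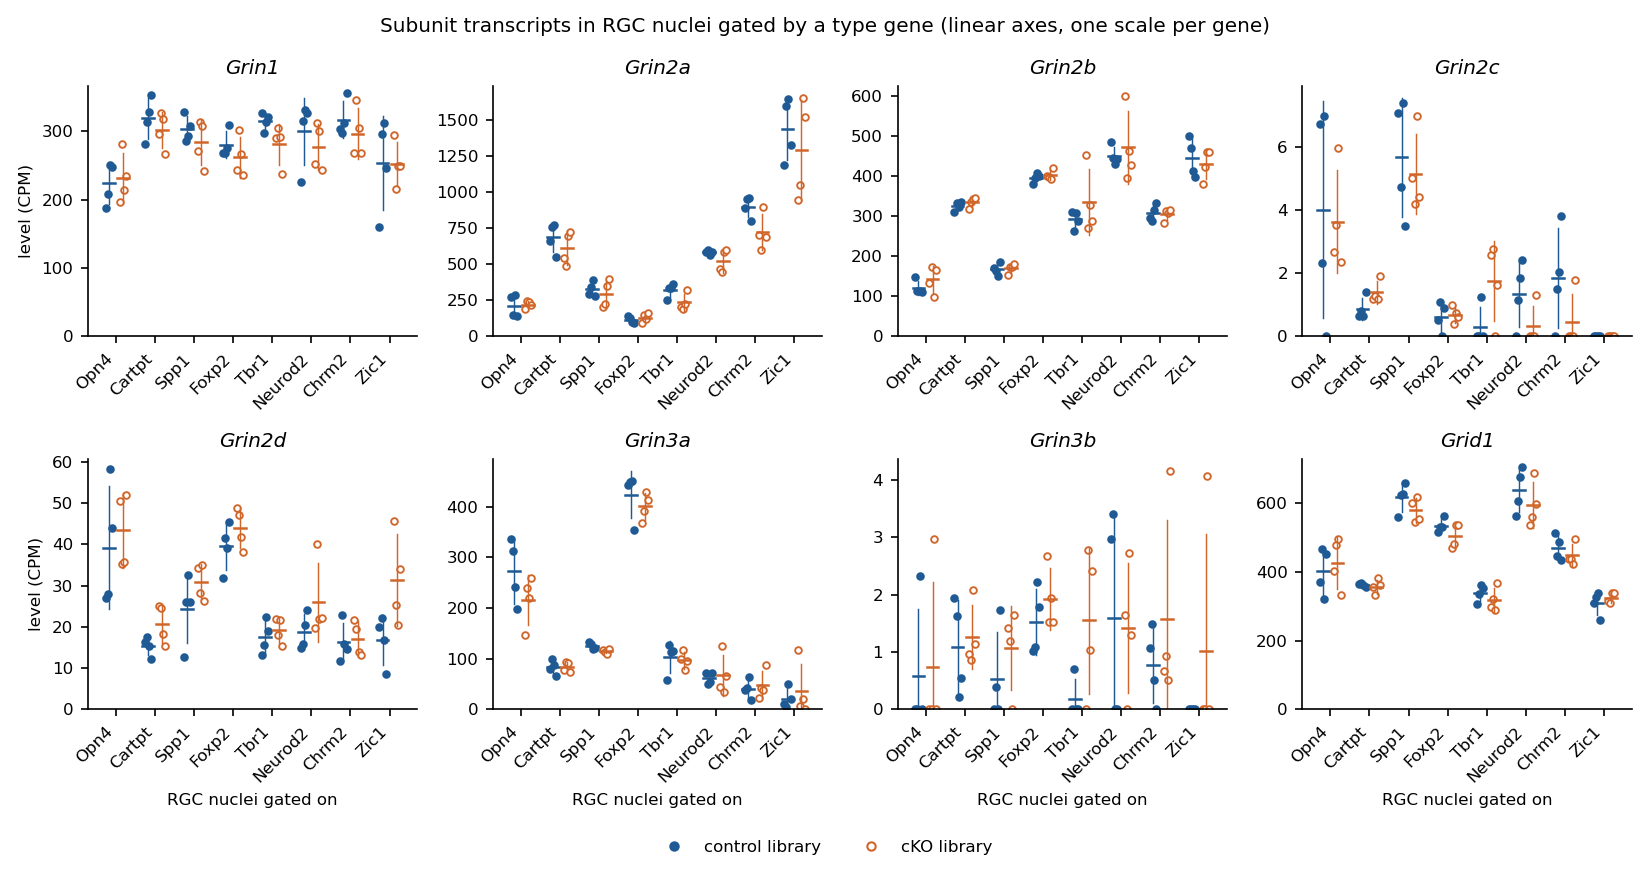
Levels of the 8 members in CPM (linear axes, one scale per gene) in RGC nuclei gated on 8 type genes; points are libraries (filled blue, control; open orange, cKO), with mean and SD of 4 libraries. Grin2a is highest in the Zic1 gate (1189 to 1647 CPM in control libraries) and lowest in the Foxp2 gate, where Grin3a is highest (354 to 451 CPM).

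Each gate was tested against all other RGC nuclei of the same libraries. In the Foxp2 gate 3 members were called in control libraries, with 9.55% of genes called: Grin3a at 2.46 ± 0.087 (edgeR adjusted p = 2.16e-10), Grin2a at -2.78 ± 0.11 (adjusted p = 4.32e-10) and Grin2d at 0.88 ± 0.11 (adjusted p = 3.35e-05). The Grin2d call was lost after thinning to 2000 UMIs (0.62, edgeR adjusted p = 0.0525). In cKO libraries (7.93%) the values were 2.43 ± 0.10, -2.37 ± 0.19 and 0.88 ± 0.096, and Grin2c was called as well at -1.50 ± 0.34. Grin2c passed the filter on low counts there only through nuclei outside the gate (1.90 to 2.09 CPM, against 0.382 to 1.00 CPM inside). Its level outside was within the range of empty droplets (0.499 to 2.32 CPM), and this call was not read as a difference. The Grin2c call ended without cKO replicate 11, 12 or 13 (adjusted p = 0.072 to 0.0997), with the DESeq2 test (0.0648) and with the stricter gate (0.107). Grin2a and Grin3a thus differed in opposite directions in this gate in both genotypes. Grid1 was at 0.38 ± 0.057 and Grin2b at 0.25 ± 0.057, both past the adjusted p (0.000192 and 0.00675) and under the fold.

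In the Zic1 gate 2 members were called in control libraries (background 6.2%), Grin2a at 1.12 ± 0.10 (edgeR adjusted p = 6.27e-08) and Grin3a at -2.65 ± 0.30 (adjusted p = 1.24e-06). The Grin3a value rests on 23 UMIs inside the gate in control and 29 UMIs in cKO libraries. The cKO libraries (4.26%) gave 1.13 ± 0.18 and -1.96 ± 0.46 (edgeR adjusted p = 0.0145). In the cKO, Zic1-gated nuclei of replicate 10 held 117 CPM of Grin3a and those of replicates 11 to 13 held 6.33, 20.4 and 0 CPM, and the call was lost without replicate 11, 12 or 13 (adjusted p = 0.111 to 0.156) and with the DESeq2 test (0.504). In the Chrm2 gate Grin3a was lower in both genotypes, by -1.74 ± 0.18 in control (4.61%; edgeR adjusted p = 9.78e-06) and -1.42 ± 0.27 in cKO libraries (2.82%; adjusted p = 0.0115), the latter lost without cKO replicate 11 or 12 (adjusted p = 0.0979 and 0.156). Grin2d was at -0.54 ± 0.16 in control, where it missed the threshold (edgeR adjusted p = 0.0503; called at 0.00948 with the library as a block, 0.0359 with the DESeq2 test, 0.00443 with no filter, 0.0149 with the stricter gate and 0.0201 without control replicate 2), and was called in cKO at -0.71 ± 0.15 (adjusted p = 0.0197), a call lost without cKO replicate 11, 12 or 13 (0.0722 to 0.24), with the stricter gate (0.106) and after thinning (0.348). Outside the Chrm2 gate Grin2d was at 25.1 to 29.6 CPM in cKO libraries, within the range of empty droplets (18.2 to 31.0 CPM). Grin2a in the Chrm2 gate of control libraries, at 0.48 ± 0.077 (edgeR adjusted p = 0.000676), was short of the fold, and passed it at 0.50 without control replicate 3.

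Opn4-gated nuclei had less of the glutamate-binding subunits Grin2a and Grin2b. Grin2a was at -1.84 ± 0.16 (edgeR adjusted p = 1.05e-08), Grin2b at -1.67 ± 0.11 (adjusted p = 1.66e-10) and Grin3a at 0.94 ± 0.12 (adjusted p = 4.67e-06) in control libraries, 3 called members against a background of 11.7%. Grin1 was at -0.43 ± 0.11 (edgeR adjusted p = 0.0119), under the fold, and Grin2d (0.66) and Grid1 (-0.19) missed the adjusted p. In cKO libraries (8.29%) the same 3 were called at -1.53 ± 0.16, -1.37 ± 0.15 and 0.74 ± 0.16, with Grin2d as the fourth at 0.65 ± 0.19 (edgeR adjusted p = 0.0448). The Grin2d call was lost when any cKO library was left out (0.0593 to 0.296), and that of Grin3a without cKO replicate 11 or 13 (0.0558 and 0.0506). The stricter gate ended both (0.715 and 0.134), and no filter that of Grin2d (0.113).

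Spp1-gated nuclei also had less Grin2a, at -1.08 ± 0.098 (edgeR adjusted p = 2.13e-07), and less Grin2b, at -1.10 ± 0.074 (adjusted p = 5.18e-09). Grin2c was called there at 2.27 ± 0.34 (edgeR adjusted p = 7.53e-05), and Grid1 was higher, at 0.56 ± 0.065 (adjusted p = 3.95e-06). In all, 4 of 7 members tested were called in control libraries, where 18.9% of genes were. Grin2c passed the filter on low counts in control libraries only through the Spp1 gate (3.48 to 7.38 CPM inside, 0.839 to 1.30 CPM outside). Its control call was therefore not read as a difference. In cKO libraries (16.5%) the 4 values were -1.07 ± 0.22, -1.09 ± 0.094, 1.80 ± 0.28 and 0.53 ± 0.092, and Grid1 came to 0.49, under the fold, without cKO replicate 10, and to 0.47 with no filter. With nuclei thinned to 2000 UMIs and the gate set again on these counts, Grid1 was at 0.14 in cKO libraries. Grin2c was at 1.83 there (edgeR adjusted p = 0.687), and neither was called.

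The other 3 gates had fewer called members. In the Cartpt gate Grin3a was at -0.80 ± 0.099 (edgeR adjusted p = 0.00012) and Grin2d at -0.84 ± 0.11 (adjusted p = 0.000291) in control libraries (background 3.9%), and the other 6 members lay between -0.88 (Grin2c) and 0.17 (Grin1), uncalled. Grin2d was at 12.2 to 17.5 CPM inside this gate, below the range of empty droplets (18.2 to 31.0 CPM), and at 25.0 to 29.3 CPM outside, within that range. In cKO libraries (2.15%) Grin3a, at -0.74 ± 0.11, was called and Grin2d, at -0.52 ± 0.13 (edgeR adjusted p = 0.0703), was not. Grin2d was called there with the library as a block, the DESeq2 test, no filter, the stricter gate or thinning (-1.03 to -0.53). In the Tbr1 gate Grin2a was the called member, at -1.07 ± 0.10 in control (2.89%; edgeR adjusted p = 4.09e-06) and -1.32 ± 0.19 in cKO libraries (2.09%; adjusted p = 0.00145), and the other 5 members tested in control libraries lay between -0.48 (Grin2d) and 0.14 (Grin1). The Neurod2 gate had less Grin3a, at -1.13 ± 0.12 (edgeR adjusted p = 8.57e-06), and more Grid1, at 0.58 ± 0.085 (adjusted p = 0.000193), with 4.09% of genes called in control libraries. In cKO libraries (2.77%) these were -1.04 ± 0.24 and 0.51 ± 0.11, and each was lost when 1 of several libraries was left out: Grin3a without cKO replicate 10, 12 or 13 (adjusted p = 0.0623 to 0.249) and Grid1 without cKO replicate 12 or 13 (0.139 and 0.0819) and, at 0.48, with no filter. Thinning to 2000 UMIs brought Grid1 in this gate to 0.19 in both genotypes, and it was not called. In cKO libraries it also ended the Grin3a call (-1.79, edgeR adjusted p = 0.0607), while Grin2a became called (-1.19, adjusted p = 0.00245).

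The study split RGCs of control retinae by whether a nucleus held a Piezo2 transcript. The same cut was applied here to gated RGC nuclei of both genotypes, with uncorrected counts. Piezo2+ RGCs had at least 1 Piezo2 UMI: 677 of 9538 RGC nuclei in control and 691 of 10746 in cKO libraries. The part of free Piezo2 RNA in this split was not tested. Grin2a was at 929, 1005, 1137 and 846 CPM in Piezo2+ and at 619, 689, 714 and 585 CPM in Piezo2- RGCs of control libraries 1 to 4. Grin3a was at 39.0, 36.9, 43.0 and 39.1 CPM in Piezo2+ and at 142, 148, 148 and 127 CPM in Piezo2- RGCs. Neither gene's groups overlapped, Grin2a being higher and Grin3a lower in Piezo2+ RGCs of every control library, where Grin3a was also below its level in empty droplets (46.5 to 63.6 CPM).

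In control libraries 2 of the 6 members tested were called for Piezo2 status, beside 4.13% of all genes. Members were chosen with the lower Grin3a in Piezo2+ RGCs already known from these data, so this count is a description. Grin2a was higher by 0.62 ± 0.089 (SE, n = 4 libraries; edgeR adjusted p = 0.000278) and Grin3a lower, at -1.80 ± 0.091 (adjusted p = 4.38e-09). Grin1 was at 0.19 ± 0.083, Grin2b at -0.08 ± 0.061, Grid1 at 0.06 ± 0.062 and Grin2d at -0.26 ± 0.14, with edgeR adjusted p-values of 0.293 to 0.749. Grin2d was at 13.6, 21.2, 24.0 and 20.9 CPM in Piezo2+ and 23.7, 24.7, 26.2 and 26.7 CPM in Piezo2- RGCs. Grin2c and Grin3b did not pass the filter on low counts.

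The Piezo2+ nuclei differed in type and depth from the rest. Foxp2-gated nuclei made up 3.66% to 7.94% of Piezo2+ and 17.4% to 21.1% of Piezo2- RGCs in control libraries, and Chrm2-gated nuclei 27.5% to 33.5% against 4.26% to 6.32%. Library medians were 6170.5 to 12946.5 UMIs in Piezo2+ and 5194.5 to 11118 UMIs in Piezo2- RGCs. In a comparison added after seeing the data, which left out the Foxp2-gated nuclei, Grin3a was at -1.44 and Grin2a at 0.45 (edgeR adjusted p = 0.00269), below the fold. Chrm2-gated nuclei, low in Grin3a and high in Grin2a, were kept in it, so the groups still differed in type. The part of type in the Piezo2 contrast was not tested. Without the Foxp2-gated nuclei, Grin3a was at 21.9 to 38.6 CPM in Piezo2+ and 72.7 to 91.0 CPM in Piezo2- RGCs of control libraries.

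In cKO libraries Grin3a was at 61.4, 75.8, 50.4 and 32.1 CPM in Piezo2+ and at 116, 133, 135 and 139.8 CPM in Piezo2- RGCs, again without overlap. It was the single called member of the 8 tested, at -1.23 ± 0.17 (n = 4; edgeR adjusted p = 0.00174), with 1.84% of all genes called. Grin2a was at 682, 627, 999 and 839.7 CPM against 515, 481, 673 and 645 CPM, so that the groups overlapped between libraries although it was higher in Piezo2+ RGCs of each library. Its log2 fold change was 0.48 ± 0.17 (edgeR adjusted p = 0.299; 3.28e-10 with the library as a block, still under the fold). Grin2d, at 14.2, 23.2, 21.6 and 10.2 CPM against 29.7, 28.4, 28.9 and 25.1 CPM, gave -0.65 ± 0.18 (edgeR adjusted p = 0.119; called at 0.00271 with the library as a block, 0.0178 with the DESeq2 test and 0.0418 with no filter). Thinned to 2000 UMIs, with Piezo2 status set again on these counts, Grin3a was at -1.0 (edgeR adjusted p = 0.245) and no member was called. Without thinning and without the Foxp2-gated nuclei, Grin3a was at -0.85 (edgeR adjusted p = 0.0228).

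**Figure D3:**
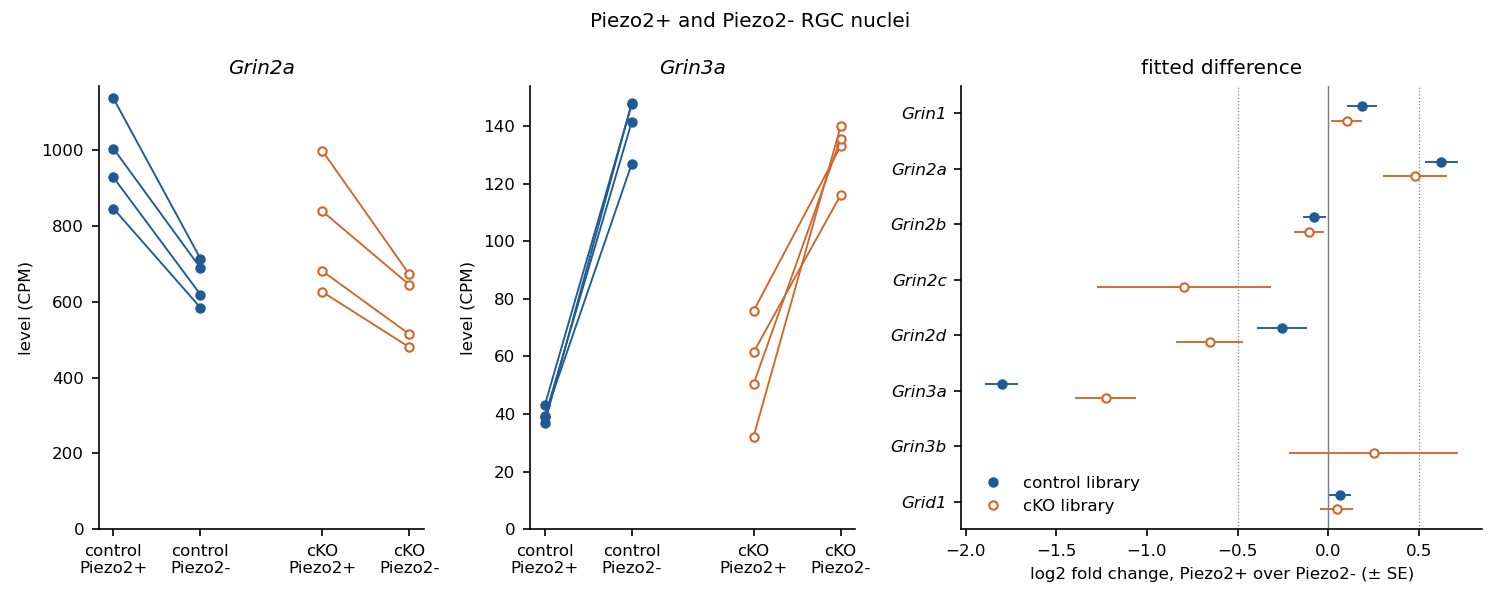
Left and centre, Grin2a and Grin3a levels in CPM in Piezo2+ and Piezo2- RGC nuclei, with lines joining the nuclei of 1 library (filled blue, control; open orange, cKO); right, fitted log2 fold change (Piezo2+ over Piezo2-) ± SE for members that passed the filter, dotted lines at 0.5 either side of 0. Grin3a is lower in Piezo2+ RGCs in all 8 libraries and Grin2a is higher.

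Whether the Piezo2 contrast differed by genotype was tested with an interaction term. No member was called with edgeR, beside 0.00615% of all genes (1 gene), while 828 genes had an unadjusted p under 0.05. For Grin3a the contrast in cKO was 0.61 ± 0.16 less negative (unadjusted p = 0.000505, adjusted p = 0.437), and for Grin2a the difference was -0.14 ± 0.052 (adjusted p = 0.88). The Grin3a interaction was called when cKO replicate 13, whose Piezo2+ RGCs had the lowest cKO level, was left out (0.79, adjusted p = 0.0106), and with no filter on low counts (0.59, adjusted p = 0.00278). Over the alternatives it ran from 0.45 to 1.68, the latter after thinning to 2000 UMIs (adjusted p = 0.999). The genotypes were thus not shown to differ in this contrast by the test as planned.

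Between genotypes, no member was called in any class. In RGC nuclei the 8 members lay between -0.25 ± 0.13 (Grin2a) and 0.29 ± 0.17 (Grin2c), with edgeR adjusted p = 0.997 each. Grin2a was at 644, 715, 751 and 611 CPM in control and 531, 492, 697 and 659 CPM in cKO libraries, which overlapped. For Grin1 the cKO RGC values were 259, 303, 292 and 247 CPM, for Grin2b 337, 337, 352 and 359 CPM, and for Grin3a 111, 128, 129 and 132 CPM. Each of these overlapped the control libraries. Grin2c did not overlap, at 1.76, 1.81, 1.88 and 1.74 CPM in cKO against 1.56, 1.46, 1.23 and 1.43 CPM in control RGC nuclei, from 32 to 50 and 20 to 45 UMIs per library. All these values were within the range of Grin2c in empty droplets (0.499 to 2.32 CPM). The share of all genes whose libraries did not overlap between genotypes was not counted. Background calls in edgeR were 0% of genes in RGC, bipolar and photoreceptor nuclei, 0.00814% in amacrine nuclei and 0.0137% in Müller glia. Unadjusted p-values under 0.05 were found for 597, 552, 242, 340 and 279 genes in RGC, amacrine, bipolar, photoreceptor and Müller glia nuclei.

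The largest genotype value of a member was that of Grin2a in photoreceptor nuclei. It was at 45.7, 21.8, 10.8 and 7.49 CPM in control and at 84.1, 143, 22.5 and 74.4 CPM in cKO libraries, from 21, 8, 3 and 2 UMIs and 44, 38, 14 and 47 UMIs. One cKO library, replicate 12, lay within the control range. The log2 fold change was 1.65 ± 0.55 (unadjusted p = 0.00973, edgeR adjusted p = 0.908). With no filter on low counts it was 1.66 (adjusted p = 4.63e-05), together with 90 called genes. RGC marker genes summed to 314 to 531 CPM in the photoreceptor gate of control and 472 to 697 CPM of cKO libraries; their part in this value was not tested. In amacrine nuclei the 6 members tested lay between -0.13 and 0.04, and in bipolar nuclei the 4 tested between -0.28 ± 0.16 (Grin1) and 0.34 ± 0.29 (Grin2b). In Müller glia the 2 members tested were at 0.09 ± 0.14 (Grin2b) and -0.11 ± 0.18 (Grid1).

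**Figure D4:**
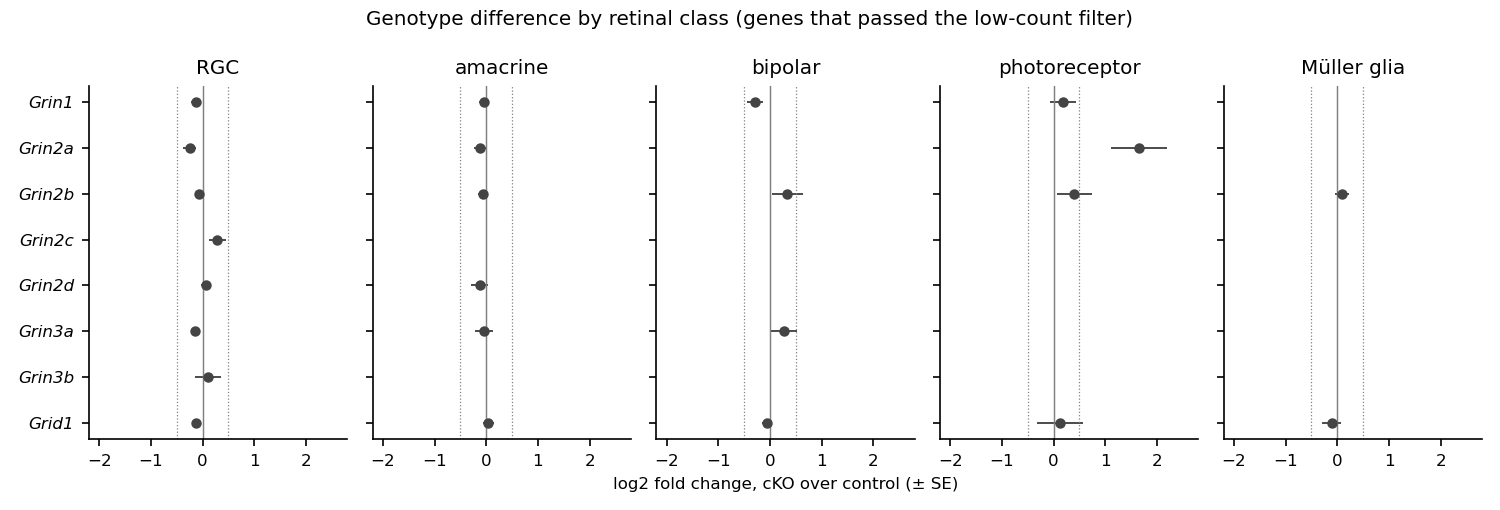
Fitted log2 fold change of cKO over control ± SE for each member that passed the filter on low counts, in 5 classes, with dotted lines at 0.5 either side of 0. In RGC nuclei all 8 members lie within 0.5 of 0, and Grin2a in photoreceptors, at 1.65 ± 0.55, is the farthest from 0.

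The partners of these receptors were followed as a list of 33 genes: cerebellins and neurexins, postsynaptic scaffolds, kinases and genes of co-agonist supply. For Piezo2 status in control RGCs 27 passed the filter and 2 were called, both lower in Piezo2+ RGCs (as were 2.41% of all genes) and both scaffolds of the membrane-associated guanylate kinase family, Dlg2 at -0.67 ± 0.05 (edgeR adjusted p = 4.8e-07) and Dlg1 at -0.55 ± 0.10 (adjusted p = 0.00222). In cKO libraries Dlg2 was called, at -0.58 ± 0.07. Between genotypes no partner was called in any of the 5 classes. The partner list had a median of 0.01 for Piezo2 status in control libraries, against -0.003 over all genes.

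Across classes the partners moved in both directions. Of 29 tested between RGC and amacrine nuclei in control libraries, 1 was higher and 12 lower in RGC nuclei, beside 2085 and 2018 of all 15834 genes (median -0.36, against 0.003 over all genes), led by the kinase gene Ptk2b (-4.33), the cerebellins Cbln2 (-3.94) and Cbln1 (-2.75) and the neurexin Nrxn3 (-2.74). Against bipolar nuclei 8 of 26 were higher and 5 lower (3777 and 2858 of all 15668 genes), among them Neto1, an auxiliary subunit gene (-5.97), Nrxn3 (-3.97), the amino acid transporter gene Slc1a4 (3.17) and the scaffold gene Shank3 (3.02). Against photoreceptors 14 of 26 were higher and 3 lower, beside 4640 and 3135 of all 15581 genes (among them Shank3 3.72, Dlgap1 3.14 and Slc1a4 2.93). Against Müller glia 12 of 27 were higher and 5 lower, beside 4309 and 3417 of all 15922 genes (among them Nrxn2 3.23 and Shank3 3.23).

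Among RGC types of control libraries, the Foxp2 gate had 3 partners higher and 2 lower of 27 (9.55% of all genes called), among them Camk2a at 0.62, Dlgap1 at -0.61 and Slc1a4 at 0.60. In the Zic1 gate 1 of 26 was higher and 4 lower (6.2%), among them Dlgap1 at -2.08, Slc1a4 at 0.94 and Camk2g at -0.68. The Opn4 gate had 5 higher and 2 lower of 26 (11.7%), led by the kinase gene Dapk1 (-1.48), Dlgap1 (1.41), Camk2d (-1.07) and Shank2 (0.73).

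In the Spp1 gate 2 of 27 partners were higher and 6 lower (18.9% of all genes called), led by Cbln2 (-3.62), Neto1 (2.75), Camk2a (-2.05) and Dapk1 (-1.79). The Neurod2 gate had 4 higher and 1 lower of 27 (4.09%), among them Neto1 at 1.74, Camk2a at -0.72 and Dapk1 at 0.68. The Cartpt gate had 1 higher and 2 lower of 27 (3.9%), among them Neto1 at -1.56 and Cbln2 at 0.94, and the Tbr1 gate 0 higher and 4 lower of 26 (2.89%), among them Camk2a at -0.98, Shank2 at -0.67 and Dlg1 at -0.54. In the Chrm2 gate 2 of 27 were lower (4.61%), Dlg1 and Dlg2 at -0.51 each, the same pair of scaffolds as in Piezo2+ RGCs, of whose nuclei the Chrm2 gate held 27.5% to 33.5% in control libraries.

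Genes with the most similar profile were sought over 13 groups (5 classes and 8 RGC types) of the control libraries, as the correlation of mean log2(CPM + 1) among 12209 genes with at least 500 UMIs. The groups come from the same 4 libraries and partly share nuclei, so the values are a description. Grin1 came closest to Ndst3 (r = 0.994), Jakmip2 (0.993) and Hacd1 (0.992). Grin2a was near Or10h1 (0.949) and Panx2 (0.946). For Grin2b the first gene was Gm14330 (0.963), which overlaps it on the other strand, then Gm26930 (0.961) and Gm4258 (0.954). Grin2d was followed by Sidt1 (0.936), Idi1 (0.923) and Krit1 (0.915), and Grid1 by Tmem65 (0.927), Efr3b (0.927) and Smap2 (0.918). Grin3a had the lowest best match, Ptprm (0.864), then A030001D20Rik (0.863) and 1700016K05Rik (0.855). Grin2c (140 UMIs) and Grin3b (154 UMIs) had too few UMIs for this comparison.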

How the data were processed

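The 8 libraries (4 control, 4 cKO; 10x 3′ chemistry) were analysed from raw count matrices. The authors deposited UMI counts per gene for every barcode, made per the labels with Cell Ranger 7.0.0 on GRCm39; their later steps (ambient correction, quality control, doublet removal, clustering) are not in these counts. Nuclei were called here by UMI totals (10% of the 99th percentile of the top 8000 barcodes) or by an ambient test (at least 500 UMIs, adjusted p at most 0.001, 10000 simulations, empty droplets at ranks 45000 to 90000). Nuclei with under 200 genes, over 5% mitochondrial UMIs, or outliers by 5 (counts) or 3 (mitochondrial) median absolute deviations were removed, as were the top Scrublet scores (scanpy 1.11.5; 0.8% per 1000 nuclei). A class needed 4 UMIs from 3 of its 8 markers and 2 times every other class; an RGC type needed 2 UMIs of its lead gene (1 for Tbr1 and Neurod2). This scoring was set after nucleus counts and member levels were seen.

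Counts were summed per library and gate (over 10 nuclei and 1000 counts) and tested with edgeR 4.0.16 (R 4.3.3; TMM, filterByExpr, quasi-likelihood F test, two-sided, Benjamini-Hochberg over all genes); SE was the log2 fold change over the square root of F. Gates within a library come from the same animals, so the library was tried as a block. The other alternatives were DESeq2 1.42.0, its size factors, no filter, stricter gates and no doublet removal. Further ones were nuclei by UMI totals alone, thinning to 2000 UMIs and leaving out each library. Stricter gates needed 6 UMIs and 3 times every other class, and 3 UMIs of a lead gene (2 for Tbr1 and Neurod2). Class gates were kept after thinning, but type gates and Piezo2 status were set again on the thinned counts, so nuclei could change group. The test was checked on simulated counts. The rule for names was all 8 members and, of the partners, the 4 of largest fold among those called; uncalled members of some type gates are given as a range or left out, and some partners, similar genes and sequences are not reported here. Members and lists were chosen with earlier results of these data known, among them the lower Grin3a in Piezo2+ RGCs.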

Additional observations from a re-analysis of the deposited data

Results flagged for a closer look

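Single libraries stood apart from the other 3 of their genotype in 6 of 200 sets of 4 libraries examined (a member in a class or type gate, with at least 12 UMIs); chance alone gives about 1 in 20. Grin3a in Foxp2-gated nuclei was at 354 CPM in control replicate 4, against 442 to 451 CPM in the other control libraries, from 1186 UMIs. Grin2d in RGC nuclei was at 24.1 CPM in cKO replicate 13, against 27.9 to 28.4 CPM, from 484 UMIs. Grin1 in Neurod2-gated nuclei was at 226 CPM in control replicate 1, against 315 to 332 CPM. Grin2b in Opn4-gated nuclei was at 148 CPM in control replicate 1, against 109.9 to 114 CPM. Grin2d in Neurod2-gated nuclei was at 40.2 CPM in cKO replicate 11, against 19.7 to 22.1 CPM, from 17 UMIs. Grin2c in Cartpt-gated nuclei was at 1.91 CPM in cKO replicate 13, against 1.17 to 1.29 CPM, from 10 UMIs.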

How the results depend on the processing

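The 32 counts of called members, 1 for each comparison, stayed within 1.5 times their value with DESeq2 size factors, with no doublet removal and with nuclei called by UMI totals alone. In the Piezo2 contrast 2 members were called in control libraries, and 1 without the Foxp2-gated nuclei. In cKO libraries 1 member was called there, 2 with the DESeq2 test, with no filter or with the library as a replicate block (Grin2d gained each time, at -0.65, -0.68 and -0.66), and 0 after thinning to 2000 UMIs. For the interaction 0 members were called, and 1 with no filter; for genotype in photoreceptors 0 became 1 with no filter. In cKO libraries, RGC against amacrine nuclei went from 4 to 2 called members after thinning, where Grin3b and Grin2c were not tested. The stricter gate took Opn4 from 4 to 2 and Chrm2 from 2 to 1. Cartpt went from 1 to 2 with the DESeq2 test, no filter, the stricter gate and the replicate block, and to 3 after thinning. Grin2d was gained each time, and after thinning Grid1 as well, at -0.53. Thinning took Spp1 from 4 to 2 and Neurod2 from 2 to 1 (Grin3a and Grid1 lost, Grin2a gained), no filter took Neurod2 to 1 (Grid1 lost), and the DESeq2 test took Zic1 from 2 to 1. In control libraries, Chrm2 went from 1 to 2 with the DESeq2 test, no filter, the stricter gate, thinning and the replicate block. The member gained was Grin2b after thinning, at -0.63, and Grin2d with the other settings. The block changed no other count of called members by over 1.5 times. Leaving out single libraries gave 0 to 1 called members for the interaction, 2 to 4 for RGC against amacrine nuclei in cKO, 2 to 3 for Opn4 in cKO, 0 to 2 for Neurod2 and Chrm2 in cKO, 1 to 2 for Zic1 in cKO and 1 to 2 for Chrm2 in control libraries. Thinning leaves fewer UMIs and sets type gates and Piezo2 status again, so its values compare partly other nuclei. Of the 32 counts, 21 stayed within 1.5 times after thinning and 6 moved, and the remaining comparisons were not fitted. With the stricter gate, 24 stayed and 4 moved. The cause of the changes in these counts was not tested.

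The sign turned for 4 uncalled values and 1 called one. Grin3b between genotypes in RGC nuclei became -0.029 without control replicate 4 and -0.039 without cKO replicate 13 (-0.039 to 0.25 over single libraries left out). In amacrine nuclei the genotype value of Grin2d became 0.016 without control replicate 3 (-0.24 to 0.016), and that of Grid1 -0.028 and -0.033 without cKO replicate 10 and 13 (-0.033 to 0.11). Grin2b in RGC against amacrine control nuclei became 0.14 after thinning. Grin2c in RGC against bipolar cKO nuclei, called with 0 bipolar UMIs once doublets were removed, became -0.20 with doublets kept.

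Counts over all genes shifted more. Thinning took the Piezo2 contrast from 636 to 178 genes in control and from 296 to 82 in cKO libraries, RGC against amacrine from 4103 to 2676 and from 4013 to 2655, and RGC against photoreceptors from 7775 to 4629 and from 7978 to 4147, leaving out 633 of 817 control and 1045 of 1274 cKO photoreceptor nuclei. By gate, thinning took Foxp2 from 1487 to 758 and 1286 to 659, Tbr1 from 438 to 141 and 337 to 75, Neurod2 from 620 to 238 and 448 to 174, Spp1 in cKO from 2672 to 396 and Chrm2 in control from 710 to 399. The replicate block raised cKO counts for Piezo2 status from 296 to 596, Cartpt from 352 to 729, Tbr1 from 337 to 584, Neurod2 from 448 to 691 and Chrm2 from 455 to 753. The stricter gate took Cartpt from 618 to 1008 and 352 to 692, Opn4 in cKO from 1323 to 810, Tbr1 in cKO from 337 to 141 and Zic1 in control from 925 to 487, and UMI totals alone took photoreceptors in cKO from 7978 to 4244. With no filter, genotype calls rose from 1 to 28 (amacrine), 0 to 14 (bipolar), 0 to 90 (photoreceptor) and 1 to 48 (Müller glia) and the interaction from 1 to 13; the DESeq2 test gave 1, 4 and 3 genotype genes in RGC, amacrine and photoreceptor nuclei, and the single Müller glia gene became 0 to 2 and the single interaction gene 0 to 2 under other settings with every library. Without cKO replicate 12 the cKO counts fell to 143 for Piezo2 status, 130 for Cartpt, 165 for Tbr1, 237 for Neurod2 and 206 for Chrm2, and without cKO replicate 13 to 880 for Opn4 and 398 for Zic1 (667 with all libraries). Without control replicate 2 the control counts fell to 391 for Piezo2 status, 188 for Tbr1, 383 for Neurod2 and 611 for Zic1. DESeq2 changed the split of higher to lower genes from 673 and 650 to 929 and 560 (Opn4, cKO), from 190 and 258 to 295 and 261 (Neurod2, cKO), from 305 and 620 to 438 and 521 (Zic1, control) and from 210 and 457 to 377 and 373 (Zic1, cKO). Results for Grin2c (140 UMIs in gated control nuclei), Grin3b (154 UMIs) and the shallow photoreceptor nuclei rest on few UMIs.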
